A study of Mus musculus with 6 samples.

Results

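Lysozyme 2 and 9 marker genes of embryonic macrophages were followed in embryonic mouse hearts of stage E12.5, counted in days after conception. The 10 genes are Lyz2, Mrc1, Csf1r, Cx3cr1, Adgre1, Aif1, Tyrobp, C1qa, C1qb and C1qc, out of 18193 genes named by probe sets of the array. They were measured by 15 probe sets, the groups of short oligonucleotides that report 1 transcript region each, and every probe set whose annotation names a member alone was kept. The members were chosen by cell identity and by the log2 differences between the labels described below, which were already known, so their differences are given as a description, and no p-value is given for them.

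The hearts labelled Rhau KO (3 arrays) are described by the submitters as carrying a deletion of Rhau, an older name of Dhx36, which encodes an RNA helicase that unwinds G-quadruplexes. The control hearts are labelled wildtype (3 arrays). Both sets are C57BL/6 hearts of the same stage, and any Cre driver, the deleted part of the gene and any allele that the controls carry too are not given in the sources used here. By the series text each label had 3 hearts, which would leave 1 for an array. Nothing in it says that the hearts came from separate litters, so p-values measure only the spread between these arrays.

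Macrophages of the embryonic heart are known to come largely from the yolk sac and to clear dying cells. The CSF1 receptor keeps them alive, complement C1q tags debris for uptake, and TYROBP carries signals of several activating receptors. Lyz2 encodes a lysozyme, an enzyme that cleaves bacterial cell walls. It is strongly made by mature myeloid cells, and in the lung also by alveolar epithelium.

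The data hold facts that go against the labels. On all 3 of its probe sets Dhx36 rose under the Rhau KO label, by 0.90, 1.10 and 1.41 on the log2 scale (limma adjusted p = 0.000186, 0.000267 and 3.35e-05). Whether these probe sets lie in the deleted part is unknown here, and every direction below is that of the labels as deposited. Xist and Y-linked transcripts were both present in Rhau KO replicates 1 and 2 and in wildtype replicate 3, which a single heart of 1 sex would not give. The reading of 1 heart per array is therefore in doubt for these 3, and an n of 3 counts arrays, not embryos. Y-linked signal was 59.6 to 100% of the highest array under the Rhau KO label and 1.23 to 39.3% under the wildtype label. Results are therefore also given without these 3 arrays and with Y-linked signal in the fit. Without the 3 arrays, Rhau KO replicate 3 (Xist 0.232% of the highest array) is left against wildtype replicates 1 and 2 (Xist 100 and 98%). In that order their Y-linked signal was 100, 1.23 and 2.04%, so this fit cannot tell sex from the label. All 12 cardiomyocyte markers were above the signal filter, a mean log2 signal of 5.90, below which the lowest 40% of probe sets lie. The median array signal ran from 6.68 to 6.80.

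Lyz2 lies on mouse chromosome 10 beside its paralog Lyz1, which is known as the lysozyme of Paneth cells in the gut. Their promoters are shown because the Lyz2 probe set and the bright probe sets annotated to Lyz1 carried the largest differences described here. Those Lyz1 probe sets can also match other sequences. Each stretch runs from 250 bases before to 50 bases after the annotated start, from RefSeq on build GRCm38.p6, minus strand, at chr10:117282223-117282522 for Lyz2 and chr10:117292819-117293118 for Lyz1. Capitals mark AGGAAGT read on the opposite strand, a core bound by factors of the ETS family such as PU.1.
Lyz2: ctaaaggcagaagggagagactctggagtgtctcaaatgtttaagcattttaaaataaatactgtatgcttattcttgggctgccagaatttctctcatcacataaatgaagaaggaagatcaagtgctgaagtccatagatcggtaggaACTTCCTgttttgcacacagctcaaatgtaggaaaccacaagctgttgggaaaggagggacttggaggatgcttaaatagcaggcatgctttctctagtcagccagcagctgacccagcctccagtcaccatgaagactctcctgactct
Lyz1: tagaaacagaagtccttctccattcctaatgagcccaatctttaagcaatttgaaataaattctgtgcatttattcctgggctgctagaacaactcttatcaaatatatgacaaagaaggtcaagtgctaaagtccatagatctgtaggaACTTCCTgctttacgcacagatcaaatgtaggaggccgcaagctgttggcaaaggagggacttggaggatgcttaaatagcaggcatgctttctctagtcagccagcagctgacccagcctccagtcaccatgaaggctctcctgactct

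In a global alignment 249 of 300 Lyz2 bases met the same base in Lyz1, 108 of the first 150 and 141 of the last 150. The marked core began 100 bases before the start in both genes. Promoters were in the RefSeq table for 6 of the 10 members, and 4 of the 6 held AGGAAGT on either strand, against 9.35% of 32851 promoters of the same length. The other matches are shown with 15 bases on each side, for Mrc1 at chr2:14229188-14229224 (plus strand), C1qb at chr4:136886232-136886268 and C1qc at chr4:136893088-136893124 (both minus strand).
Mrc1: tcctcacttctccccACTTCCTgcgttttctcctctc
C1qb: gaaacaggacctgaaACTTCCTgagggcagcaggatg
C1qc: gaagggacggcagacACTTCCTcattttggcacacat

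This core was the one of 9 motifs shown here after all counts were seen. The overlapping GAGGAA was in 4 of 6 member promoters and 28.3% of all, GAGGAAGT in 1 of 6 and 3.2%, and the TATA-like TTAAATA, in Lyz2, in 1 of 6 and 4.51%. The C/EBP motif TTGCNNAA was in 0 of 6 and 10.8% of all, its strict form TTGCGCAA in 0 of 6 and 0.183%, and the octamer ATGCAAAT in 0 of 6 and 1.74%. The TATA box TATAAA was in 0 of 6 and 13.6%. The AP-1 motif TGANTCA was in 0 of 6 and 7.81%. A match is a run of letters, not a measured binding site.

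Lyz2 was the member with the largest difference. Its log2 signal was 10.13, 10.40 and 10.39 in the arrays labelled Rhau KO, against 7.37, 7.30 and 7.30 in the arrays labelled wildtype. The groups did not overlap, and the gap was far wider than the spread within either label. On the linear scale the signals were 1119, 1348 and 1338 under the Rhau KO label, against 165, 157 and 157 under the wildtype label, and the log2 means of 10.30 ± 0.15 under the Rhau KO label and 7.32 ± 0.04 under the wildtype label (SD, n = 3 each) differ by 2.98 (SE 0.091), a 7.90-fold higher signal. In order of difference, Lyz2 stood at place 10 of the 27022 probe sets above the filter. Lyz2 is measured by a single probe set, whose name marks it as specific to 1 transcript. In whole hearts a change in the number of cells of a type and a change in RNA per cell cannot be told apart.

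Lyz1, which is no member, rose on both of its bright probe sets. The probe set 1439426_x_at had 9.75, 9.92 and 9.80 under the Rhau KO label, against 6.14, 5.71 and 5.67 under the wildtype label, a difference of 3.99 (limma SE 0.153, adjusted p = 8.52e-07). Its wildtype mean of 5.84 is below the filter level, so this probe set passed the filter through the Rhau KO arrays and the size of its difference rests on a dim wildtype signal. The probe set 1436996_x_at had 10.92, 10.98 and 11.14 under the Rhau KO label, against 7.86, 6.89 and 7.30 under the wildtype label, a difference of 3.66 (limma SE 0.193, adjusted p = 4.22e-06). Both names carry the suffix for probes that can also match other sequences, and whether they read Lyz2 as well was not tested. The remaining Lyz1 probe set, 1450822_at, was below the filter at 5.37, 5.59 and 5.59 under the Rhau KO label, against 2.58, 4.89 and 5.88 under the wildtype label, where the groups overlap. The other 7 measured relatives, Lalba, Lyg1, Lyg2, Lyzl1, Lyzl4, Lyzl6 and Spaca3, lay below the filter.

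Genes beside the lysozyme pair did not share differences of that size. On the far side of Lyz1, Cpsf6, which encodes a factor of mRNA 3′ end processing, rose on 1 of its 6 probe sets by 0.36 (limma adjusted p = 0.0052), and its other probe sets differed by -0.05 to 0.49 without a call. Cpm, a carboxypeptidase gene, differed by 0.61 on the probe set above the filter (adjusted p = 0.134). On the Lyz2 side, 9530003J23Rik was below the filter at 3.71 ± 1.77 under the Rhau KO label and 4.74 ± 0.14 under the wildtype label. Yeats4, a chromatin reader gene, differed by 0.05 and Cct2, a chaperonin subunit gene, by 0.10 to 0.28 on 3 probe sets, all without a call.

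Mrc1, the mannose receptor that takes up glycoproteins and is a surface marker of tissue macrophages, had the next clear separation. Its signal was 8.56, 8.81 and 8.77 under the Rhau KO label, against 8.22, 8.32 and 8.29 under the wildtype label. The lowest Rhau KO value was above the highest wildtype value, with a difference of 0.43 (SE 0.083), a 1.35-fold higher signal. The difference was 0.39 to 0.51 without any 1 array, 0.50 without the 3 arrays in doubt and 0.25 with Y-linked signal as a covariate.

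**Figure D1:**
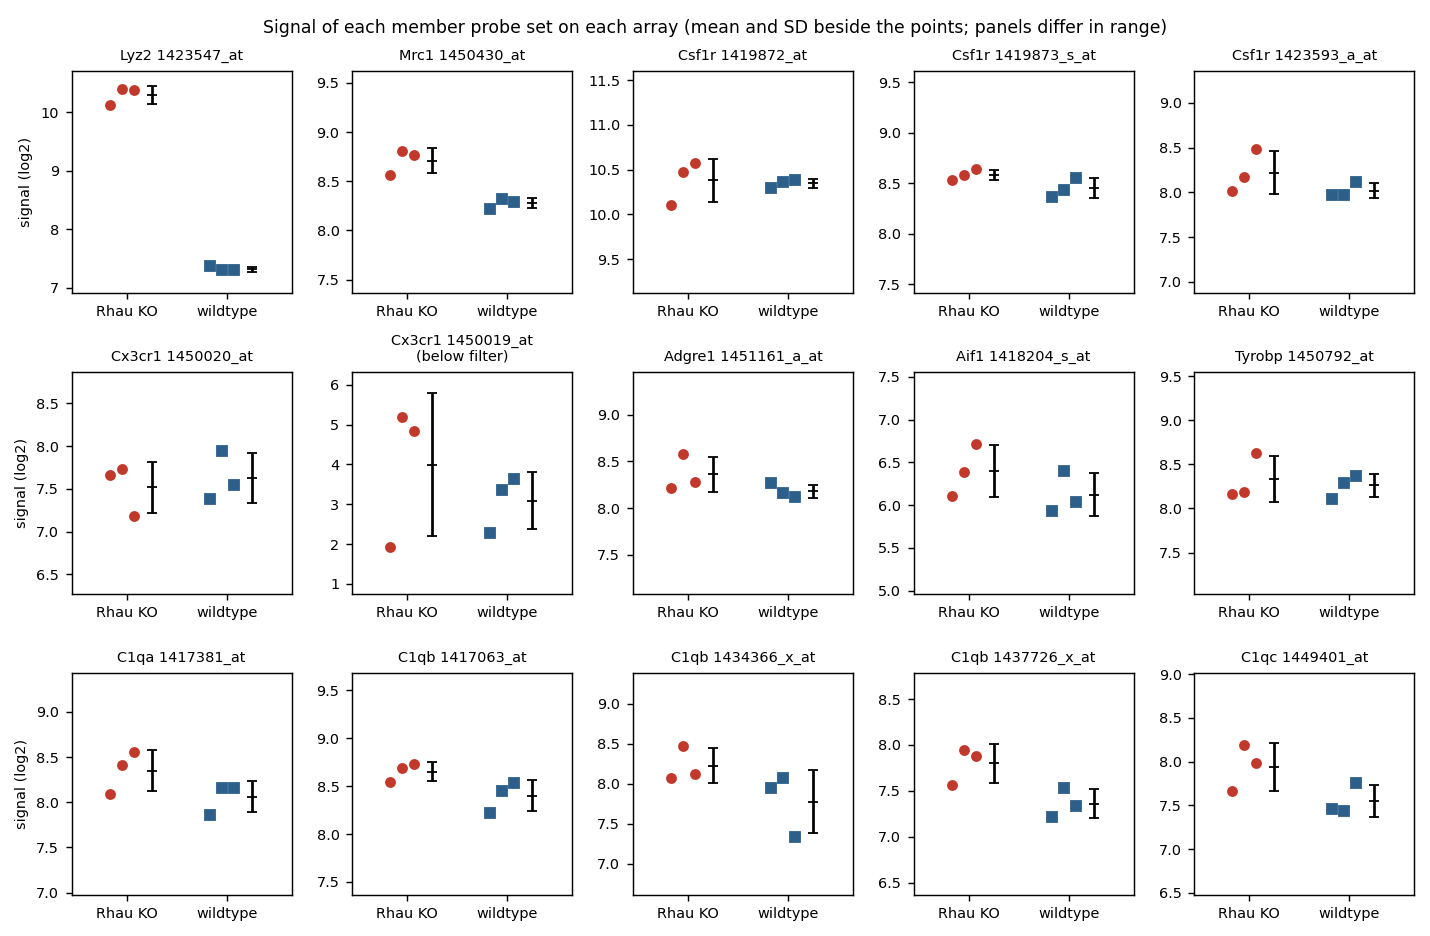
Log2 signal of all 15 member probe sets, 1 point per array, with Rhau KO (circles) left of wildtype (squares) and the mean with its SD beside the points. Lyz2 stands at 10.30 in Rhau KO, against 7.32 in wildtype, while 10 of the 15 panels show overlapping groups.

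Csf1r encodes the receptor for the growth factors CSF1 and IL-34, and it had 3 probe sets. The brightest, 1419872_at, read 10.11, 10.47 and 10.57 under the Rhau KO label, against 10.29, 10.36 and 10.39 under the wildtype label. The Rhau KO values enclose the wildtype ones, and the difference was 0.04 (SE 0.141). The other probe sets, 1419873_s_at and 1423593_a_at, differed by 0.13 (SE 0.064) and 0.21 (SE 0.145), also with overlapping groups.

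Cx3cr1 encodes the receptor of the chemokine fractalkine. Its brighter probe set, 1450020_at, had 7.66, 7.73 and 7.18 under the Rhau KO label, against 7.38, 7.94 and 7.55 under the wildtype label. The groups overlap, and the difference of -0.10 (SE 0.239) was the only one below 0 among the 15. The dim probe set, 1450019_at, had 1.93, 5.19 and 4.85 under the Rhau KO label, against 2.28, 3.35 and 3.64 under the wildtype label. It was the 1 member probe set below the filter, and its difference of 0.90 had an SE of 1.114.

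Adgre1, known as F4/80, the classical surface antigen of mouse macrophages, had 8.22, 8.58 and 8.28 under the Rhau KO label, against 8.27, 8.16 and 8.12 under the wildtype label. Rhau KO replicate 2 was the highest, and the difference was 0.18 (SE 0.118). Aif1, which encodes the actin-binding protein IBA1, had 6.11, 6.39 and 6.71 under the Rhau KO label, against 5.93, 6.40 and 6.03 under the wildtype label, with a difference of 0.28 (SE 0.226). Tyrobp, the adaptor also called DAP12, had 8.16, 8.19 and 8.63 under the Rhau KO label, against 8.11, 8.29 and 8.37 under the wildtype label, with a difference of 0.07 (SE 0.171). The groups overlapped for all 3 genes.

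C1qa, C1qb and C1qc encode the chains of complement C1q and are neighbours on mouse chromosome 4. C1qa had 8.09, 8.41 and 8.55 under the Rhau KO label, against 7.86, 8.16 and 8.16 under the wildtype label, a difference of 0.29 (SE 0.168). C1qc had 7.66, 8.19 and 7.98 under the Rhau KO label, against 7.46, 7.44 and 7.76 under the wildtype label, a difference of 0.39 (SE 0.188). For both genes Rhau KO replicate 1 lay among the arrays labelled wildtype.

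C1qb was measured by 3 probe sets, on each of which the groups did not overlap. On 1417063_at it had 8.54, 8.69 and 8.73 under the Rhau KO label, against 8.22, 8.45 and 8.53 under the wildtype label, a difference of 0.25 (SE 0.107). On 1437726_x_at it had 7.56, 7.95 and 7.88 under the Rhau KO label, against 7.21, 7.53 and 7.34 under the wildtype label, a difference of 0.43 (SE 0.153). On 1434366_x_at it had 8.07, 8.47 and 8.13 under the Rhau KO label, against 7.95, 8.07 and 7.33 under the wildtype label, a difference of 0.44 (SE 0.260). The gap between the groups was narrow on each, and on the last one the nearest values are equal at this rounding.

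Over all 15 probe sets the median difference was 0.28, and it was 0.27 without Lyz2, with a range of -0.10 to 0.90. The median over the 27022 probe sets above the filter was 0.04. By limma, 2 of the 14 member probe sets above the filter, those of Lyz2 and Mrc1, passed as higher at an adjusted p of 0.05, and 0 passed as lower. Of all tested probe sets 13.6% passed in either direction, 6.75% as higher and 6.88% as lower. Groups did not overlap for 5 of the 14, all with Rhau KO above, against 19.4% of all probe sets in that direction and 33.9% in either. Since the members were chosen with these differences known, nothing is read from those counts.

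**Figure D2:**
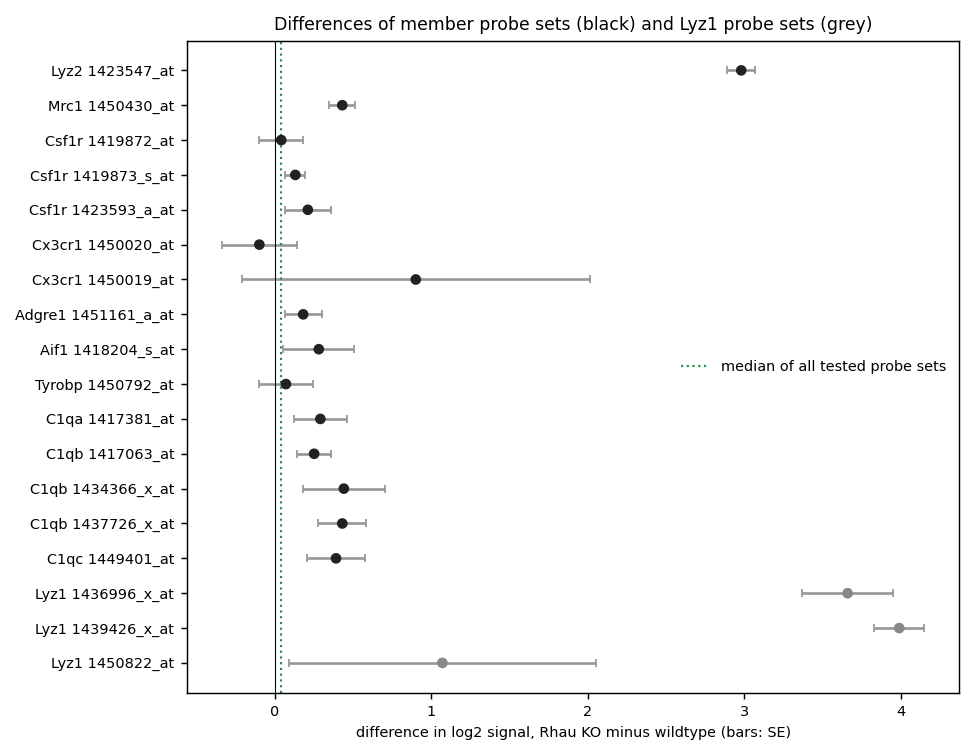
Difference in log2 signal, Rhau KO minus wildtype, with its SE (n = 3 each), for the 15 member probe sets (black) and the Lyz1 probe sets (grey), and a dotted line at the median of all tested probe sets. Lyz2 at 2.98 and the bright Lyz1 probe sets at 3.66 and 3.99 stand apart from the other members, which lie between -0.10 and 0.90.

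The spread of the members within a label uses no difference between labels. With each label's mean removed, Rhau KO replicate 1 was the lowest of its 3 arrays on 13 of the 14 member probe sets above the filter, Lyz2 included, against 33.0% of all tested probe sets. Cx3cr1 was the exception, with its lowest array at replicate 3. Wildtype replicate 1 was the lowest of its label on 9 of 14, against 34.6% of all. Both arrays were the lowest on 8 of 14, against 11.5%. The pooled within-label SD of the members ran from 0.08 to 0.32 with a median of 0.18, and the median over all tested probe sets was 0.14.

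Members varied together within a label to a mixed degree. Pearson correlations of the deviations over the 6 arrays, described without a test because the points share arrays and only 4 of the 6 deviations are free, had a median of 0.53 over 91 pairs of member probe sets. The highest was 0.95, between C1qb 1437726_x_at and Mrc1, and the lowest -0.68, between Cx3cr1 and Csf1r 1423593_a_at. C1qa and C1qb 1417063_at had 0.91, C1qa and C1qc 0.65, and the 3 Csf1r pairs 0.61 to 0.87. The probe set C1qb 1434366_x_at stood apart from its own gene, at -0.32 with 1417063_at and 0.44 with 1437726_x_at.

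**Figure D3:**
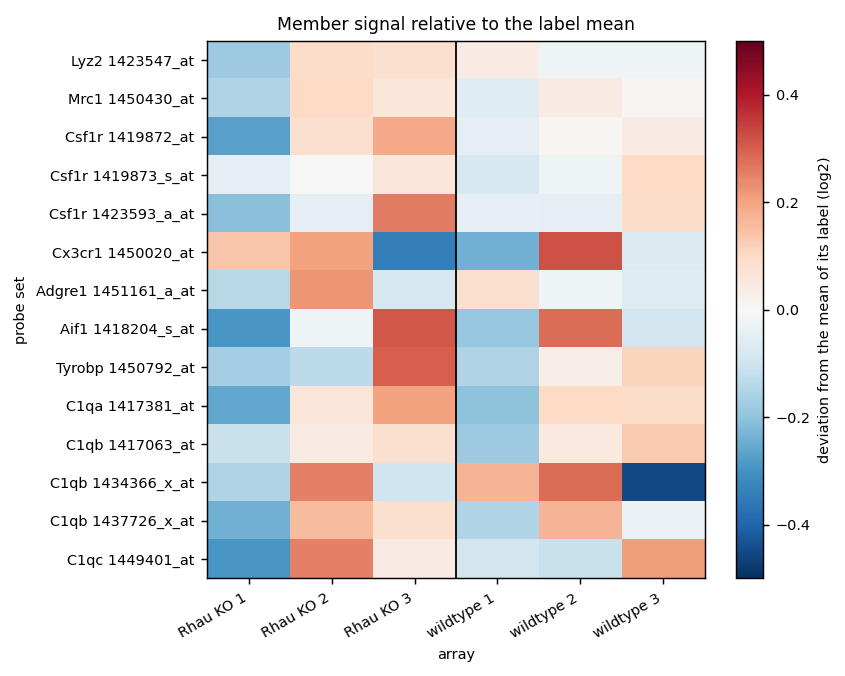
Deviation of each array from the mean of its label (log2, colour) for the 14 member probe sets above the filter, Rhau KO replicates left of wildtype replicates. The Rhau KO replicate 1 column is the lowest of its label in every row but that of Cx3cr1.

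Genes most like Lyz2 over the 6 arrays were Kcnq1ot1, Srpk2, Lyz1, Col4a5 and Mbtd1, with Pearson correlations of 0.9983, 0.9979, 0.9972, 0.9972 and 0.9966. Of 22782 probe sets compared, 568 had a correlation over 0.95, a value that any wide gap between labels with little spread within them gives. Apart from Lyz1, their differences were 0.73, 0.38, 0.67 and 0.30, much smaller than that of Lyz2. After removal of the label means, Rapgef3, Rps20, Zfp768, Gclm and Fzd3 were the genes most like the C1q average, at 0.9997 to 0.9942, and none of them is on the leukocyte lists. Of the same 22782 probe sets, 144 had a correlation over 0.95 with that average. With so few free deviations a high value is easily reached, so nothing is read from these names.

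Other genes of macrophages and myeloid cells were counted from a list of 32, of which 31 were on the array and 24 had a probe set above the filter. Of 30 probe sets 1 rose and 1 fell, with a median difference of 0.09. Ctss, which encodes the lysosomal protease cathepsin S, rose to 9.03 ± 0.12 under the Rhau KO label, against 8.55 ± 0.17 under the wildtype label, by 0.48 (limma adjusted p = 0.0204). Ncf4, a subunit gene of the phagocyte NADPH oxidase, fell to 7.96 ± 0.51 under the Rhau KO label, against 8.82 ± 0.20 under the wildtype label, by 0.86 (limma adjusted p = 0.0260). The call for Ctss was lost without Rhau KO replicate 2 or wildtype replicate 1 or 2, and that for Ncf4 without Rhau KO replicate 1 or 2 or wildtype replicate 2 or 3. Without the 3 arrays that hold both Xist and Y-linked signal, 0 of the list passed by limma in either direction. Ctss then differed by 0.50, against 0.48 with all arrays, while Ncf4 differed by -0.20. With Y-linked signal as a covariate Ctss differed by 0.20 without a call and Ncf4 by -1.91 with one.

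Several defining myeloid genes were dim, as their values show, although they are named after being seen. Spi1, the gene of PU.1, was at 5.84 ± 0.49 under the Rhau KO label and 5.56 ± 0.81 under the wildtype label, and Itgam at 3.16 ± 0.37 under the Rhau KO label and 4.13 ± 0.22 under the wildtype label. Both lay below the filter, as did Cd14, Cd48, Cd86, Clec4n and Trem2. Ptprc, the pan-leukocyte gene of CD45, had 6.53, 6.87 and 7.02 under the Rhau KO label on its probe set above the filter, against 6.32, 6.67 and 6.41 under the wildtype label. Cd53, another leukocyte surface gene, had 7.69, 7.79 and 7.96 under the Rhau KO label, against 6.78, 7.22 and 7.58 under the wildtype label, without a call.

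The list of yolk sac and resident heart macrophage genes had 18 on the array and 9 above the filter. Of 20 probe sets 7, from 4 genes, rose and 1 fell, and the median difference was 0.24. Gas6, a ligand of TAM receptors that bridges phagocytes to dying cells, fell to 10.06 ± 0.09 under the Rhau KO label, against 11.15 ± 0.09 under the wildtype label, by 1.09 (limma adjusted p = 1.38e-05). Dab2, an endocytic adaptor gene, rose on 3 of 4 probe sets by 0.28, 0.33 and 0.54. Stab1, a scavenger receptor gene, rose by 0.39, and the growth factor gene Igf1 on 2 of 4 probe sets by 0.21 and 0.31.

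Gas6, Dab2, Stab1 and Igf1 are also made by other heart cells. The sources of the signal cannot be told apart in whole hearts. The call for Gas6 held in all 19 alternatives. Those for Dab2 and Igf1 were lost without wildtype replicate 3, for every probe set, and also with each array centred on its median. Without the 3 arrays in doubt, Stab1, Dab2 and Igf1 were not called in a fit of 1 array against 2. Stab1 then differed by 0.44, Dab2 by 0.26, 0.27 and 0.35, and Igf1 by 0.13 and 0.20. Timd4 (4.15 ± 0.32 under the Rhau KO label and 4.06 ± 1.23 under the wildtype label), Folr2 and Cd163, used to mark resident macrophages, were below the filter, and Cd163 was listed at 0 on wildtype replicate 1. Of the 9 genes below the filter, which were not tested, Fcna and Ms4a7 differed most, by 2.05 and 1.82 on their brightest probe sets. Fcna had 6.18, 6.00 and 7.14 under the Rhau KO label, against 3.60, 5.36 and 4.23 under the wildtype label. Cbr2, Folr2 and Mgl2 differed by -0.23, -0.31 and -0.41. The marker Lyve1, shared with lymphatic endothelium, was at 8.35 ± 0.23 under the Rhau KO label and 7.77 ± 0.51 under the wildtype label on its brighter probe set, without a call.

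Ligands and partners of the members mostly showed no call. Of 15 probe sets for ligands of the CSF1 receptor and CX3CR1 and for myeloid transcription factors, 0 passed by limma, and 1 had an unadjusted p under 0.05, in the lower direction. The brightest, Maf and Cebpb, differed by -0.25 and -0.10. Of 9 probe sets for TYROBP and Fc receptor partners 0 passed by limma, with 1 lower at an unadjusted p under 0.05. Among them Plcg2, a phospholipase gene, differed by -0.11 and Syk, the kinase that binds TYROBP, by -0.37.

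Among complement genes outside C1q, 1 of 21 probe sets rose and 0 fell. Cd93, once proposed as a C1q receptor and common on endothelium, was called on 1 of 4 probe sets, at 11.93 ± 0.05 under the Rhau KO label and 11.58 ± 0.09 under the wildtype label (a difference of 0.36, limma adjusted p = 0.00347), and not without the 3 arrays in doubt. C1ra, C1s1 and C2, protease genes of the cascade that C1q starts, were below the filter.

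Of 17 probe sets for relatives of the members by gene family 1 rose and 4 fell. C1ql3, a C1q-like gene of the nervous system, rose on 1 of 3 probe sets by 1.73 (limma adjusted p = 0.0034), to 6.90 ± 0.14 under the Rhau KO label, against 5.17 ± 0.47 under the wildtype label, which is below the filter level. Aif1l, the paralog of Aif1, fell on 2 of 3 probe sets by 0.71 and 0.81, and Adgre5, the CD97 gene, fell by 0.40. Pdgfrb, in the receptor kinase family of Csf1r, fell on 1 of 2 probe sets by 0.25, a call lost without any 1 array but Rhau KO replicate 3.

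Lysosomal genes used by all cells were counted because lysozyme and cathepsin S are stored in lysosomes. Of 35 probe sets 0 rose and 6 fell, with a median of -0.05. Ctsd, which encodes cathepsin D, fell by 0.43, Ctsz by 0.31, the membrane protein gene Lamp1 by 0.25 and Ctsa by 0.24 (limma adjusted p = 0.000423, 0.0337, 0.00717 and 0.0146). The call for Ctsz was lost without any 1 of the wildtype arrays and that for Ctsa without wildtype replicate 1 or 2. With Y-linked signal as a covariate Ctsd, Ctsz, Lamp1 and Ctsa differed by -0.39, -0.21, -0.27 and -0.13, all without a call. Without the 3 arrays in doubt, in a fit of 1 array against 2, they differed by -0.44, -0.23, -0.22 and -0.27. These values are sizes only, and it is not read from them that the calls held.

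Other cell types that could carry Lyz2 or the macrophage markers were checked by their summed linear signal, in percent of the array with the most. The 9 members other than Lyz2 summed to 80.3 to 100 under the Rhau KO label and 77.4 to 85.4 under the wildtype label. The other macrophage and myeloid genes summed to 92.7 to 100 under the Rhau KO label and 88.1 to 97.6 under the wildtype label. The yolk sac and resident macrophage genes, which other heart cells also make in part, summed to 97.8 to 100 under the Rhau KO label and 93.1 to 96.2 under the wildtype label, with no overlap. In that sum the brightest gene was Selenop, at log2 12.58 under the Rhau KO label and 12.31 under the wildtype label. Igf1 was next, at 12.04 and 11.84 in that order. Among dimmer genes Gas6, at 10.06 and 11.15, and Maf, at 10.20 and 10.45, were lower, and Dab2, Stab1 and Lyve1 higher. The sum therefore follows a few bright genes. Monocyte and neutrophil granule genes summed to 59.5 to 100 under the Rhau KO label and 75.0 to 94.7 under the wildtype label, and 9 of 13, including Ccr2, Elane, Ltf and S100a9, were below the filter. By limma 0 of their 4 tested probe sets passed, 0 also at an unadjusted p under 0.05, with Plac8 at 0.20 and Anxa1 at -0.23.

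Lymphoid markers summed to 63.1 to 67.0 under the Rhau KO label and 65.9 to 100 under the wildtype label, with 8 of 9 below the filter, and mast cell markers to 77.3 to 100 under the Rhau KO label and 67.9 to 69.8 under the wildtype label, with 6 of 8 below it. By limma 0 probe sets passed on either list, of 1 and 2 tested, with 0 and 1 at an unadjusted p under 0.05. Kit is on the mast cell list and is also counted among the relatives of the members by gene family. It had 8.91, 8.42 and 8.74 under the Rhau KO label, against 8.27, 8.34 and 8.24 under the wildtype label. The mast cell sum ranked the Rhau KO arrays in the same order as Kit, and no change in mast cells is read from it. Lung, liver and gut epithelium markers summed to 70.1 to 82.1 under the Rhau KO label and 95.1 to 100 under the wildtype label, and 9 of 15, among them Sftpb, Sftpd, Nkx2-1, Alb and Afp, were below the filter. Of its 11 tested probe sets 3 fell, for the keratin genes Krt8 and Krt18. Sftpc, a defining gene of the alveolar cells that make lysozyme, was at 6.11 ± 0.17 under the Rhau KO label and 6.06 ± 0.29 under the wildtype label on its brighter probe set.

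Of the more abundant cell types, erythroid markers summed to 71.0 to 88.9 under the Rhau KO label and 93.4 to 100 under the wildtype label with 11 of 17 probe sets lower and 0 higher, and megakaryocyte markers to 66.0 to 76.9 under the Rhau KO label and 80.2 to 100 under the wildtype label with 1 of 8 lower, Nfe2 at -1.43. Endothelial markers summed to 94.2 to 100 under the Rhau KO label and 81.7 to 86.3 under the wildtype label with 8 of 26 higher and 0 lower, Kdr at 0.63, Npr3 at 0.59 and Cdh5 at 0.50. Without the 3 arrays in doubt, Nfe2 differed by -0.67 and the erythroid genes Alas2 and Slc4a1 by -0.69 and -0.70, against -1.39 and -1.27 with all arrays. Among the endothelial genes Kdr then differed by 0.73, Npr3 by 0.70 on the same probe set and Cdh5 by 0.49. The other called endothelial genes, Sox18, Prox1 and Tie1, differed by 0.46, 0.24 and 0.18, against 0.36, 0.46 and 0.34 with all arrays. With Y-linked signal as a covariate the differences were -2.78 for Nfe2, -2.63 for Alas2, -2.41 for Slc4a1 and, without a call, 0.29 for Kdr. Npr3, Cdh5, Sox18, Prox1 and Tie1 also had no call with the covariate. The calls for Prox1 and Tie1 were lost without any 1 array but Rhau KO replicate 3. That for Sox18 was lost without any 1 Rhau KO array and without wildtype replicate 2. Those for Kdr, Npr3 and Cdh5 were kept without any 1 array. Cardiomyocyte markers had 0 of 21 higher and 5 lower, Nkx2-5 the most at -1.29, and epicardial and fibroblast markers 1 of 26 higher and 1 lower. These shifts moved with the labels, and their part in the member differences was not tested.

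**Figure D4:**
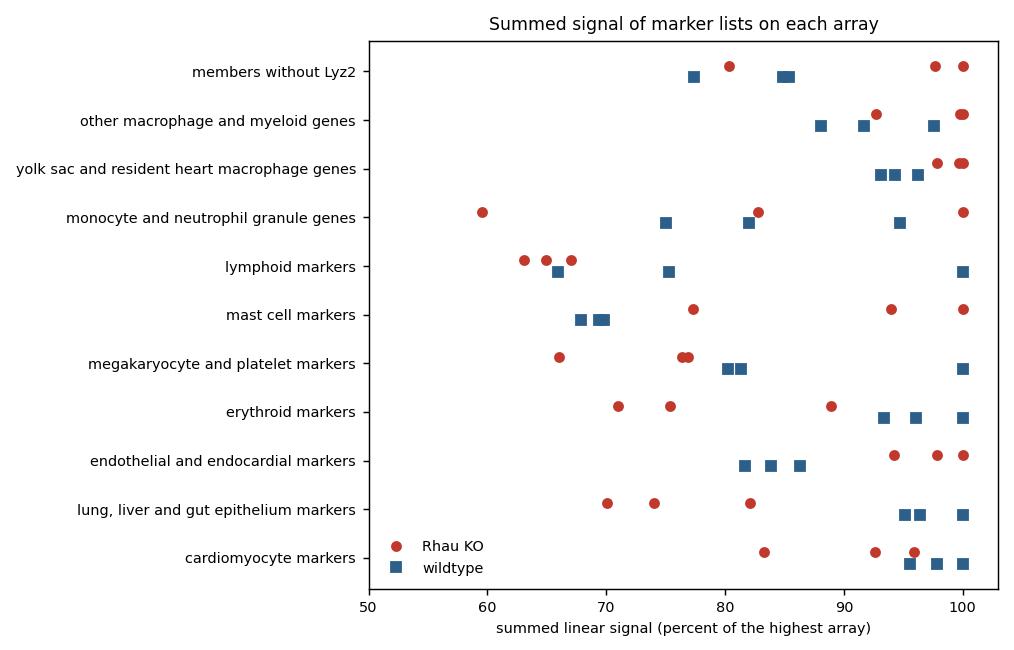
Summed linear signal of the brightest probe set of each gene on each list, in percent of the array with the most (axis from 50), Rhau KO circles above wildtype squares. The members without Lyz2 overlap between labels at 80.3 to 100 under Rhau KO, against 77.4 to 85.4 under wildtype. The yolk sac and resident macrophage, mast cell and endothelial lists are higher on every Rhau KO array than on any wildtype array. The erythroid, megakaryocyte and epithelial lists are lower on every Rhau KO array. A sum follows its brightest genes, such as Selenop and Igf1 on the yolk sac list, and no change in a cell type is read from it.

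The member differences were also described in the fits made for the arrays in doubt. Lyz2 was chosen with its difference known, so nothing is read from its values in these fits. Lyz2 differed by 3.05 without the 3 arrays that hold both Xist and Y-linked signal, and by 2.81 with Y-linked signal as a covariate. The fit without the 3 arrays leaves 1 array labelled Rhau KO, assumed to vary like the 2 labelled wildtype. That array also differs from those 2 in Xist and Y-linked signal, so sex and label are not separated there. The bright Lyz1 probe sets stood at 3.88 and 3.77 without the 3 arrays and at 4.19 and 3.59 with the covariate. Over all 19 alternatives the Lyz2 difference ran from 2.57 to 3.07 and that of Mrc1 from 0.25 to 0.51. The Mrc1 probe set no longer passed the threshold without Rhau KO replicate 2 or 3, without any 1 wildtype array, without the 3 arrays or with the covariate, and nothing is read from that for a member chosen with its difference known.

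The median over the member probe sets was 0.50 without the 3 arrays and -0.08 with the covariate. With the covariate the difference was below 0 for the 3 Csf1r probe sets, Aif1, Tyrobp, C1qa, C1qc, C1qb 1417063_at and the dim Cx3cr1 probe set, and it was 0.34 for the bright Cx3cr1 probe set. Under the same covariate 0.511% of all tested probe sets passed. The covariate follows the labels closely, so these values are less precise than those without it.

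**Figure D5:**
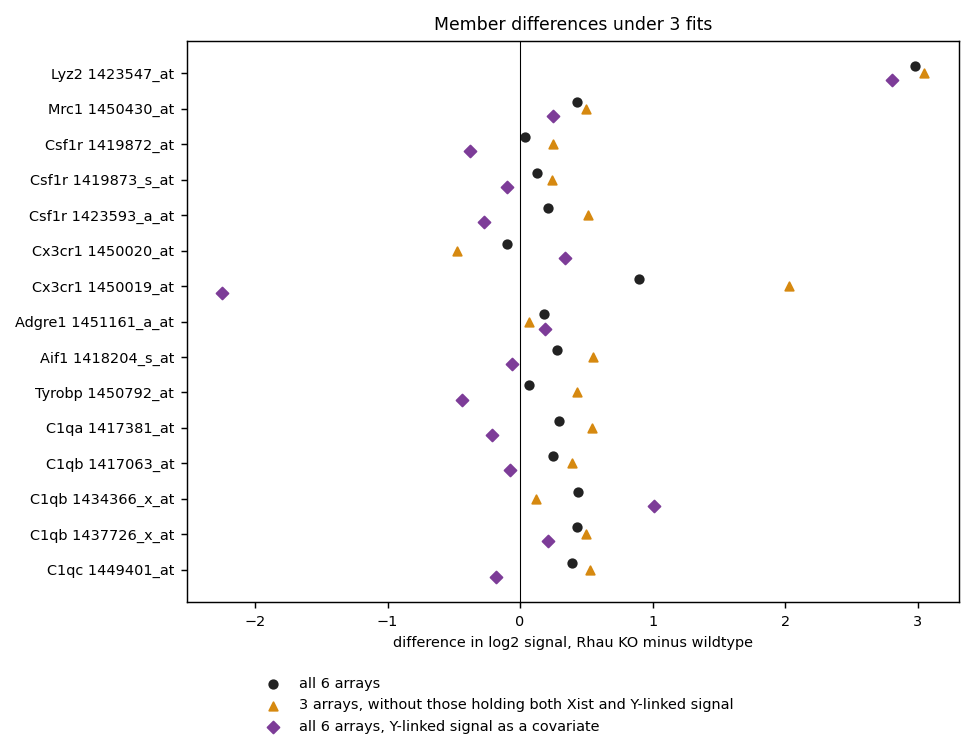
Difference in log2 signal, Rhau KO minus wildtype, for each member probe set with all 6 arrays (circles), without the 3 arrays that hold both Xist and Y-linked signal (triangles) and with Y-linked signal as a covariate (diamonds). Lyz2 lies between 2.81 and 3.05, while most other member probe sets have values on both sides of 0.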

How the data were processed

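Biotin-labelled RNA from whole embryonic hearts was measured on Affymetrix expression arrays, 1 for each sample. The deposited table holds log2 signals from MAS5, per the submitters' processing notes, with no version given in the sources used here. On the linear scale, the trimmed mean of each of the 6 arrays was 500.0. No further normalization was applied, and 0 columns were left over. Detection calls were not used here.

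Of 45101 probe sets, 64 controls were left out, and 34945 name 1 gene, 932 several and 9160 none. Entrez identifiers of 34741 were found in the RefSeq table of GRCm38.p6. Probe sets in the lowest 40% of mean signal, below 5.90, were not tested, which left 27022. limma 3.58.1 in R 4.3.3 (lmFit, eBayes with trend) compared Rhau KO with wildtype, with Benjamini-Hochberg adjustment over all 27022 and a threshold of 0.05, two-sided. SEs of members come from the 2 labels' SDs, those of other genes from limma. The fit was tested on simulated arrays drawn with the means and spread of these data. It recovered 32.8% of 67 changes of 1.5-fold, 65.7% of 67 of 2-fold and 83.3% of 66 of 4-fold. A smaller share of the 27022 probe sets was changed there than the 13.6% called in the data. The adjustment depends on that share, so recovery in the data can differ. A probe set without a call is therefore not shown to be unchanged.

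Members and gene lists were chosen with earlier results of these data known. Named on most lists are up to 4 called genes of largest change, or 2 of highest signal, besides every member, Lyz1, the measured protein-coding neighbours of Lyz2 (3 on each side) and the 5 genes most alike. On some lists of other cell types, such as the erythroid and cardiomyocyte ones, not all of these genes are named. Other defining markers were named after their values were seen. Replicate numbers did not pair the arrays: deviations of same-numbered arrays correlated at 0.00, 0.042 and 0.005. Alternatives changed scale, filter, probe set summary, model and arrays. Python 3.11.15, pandas 2.3.3, Biopython 1.88 (alignment) and matplotlib 3.10.9 did the rest.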

Additional observations from a re-analysis of the deposited data

How the results depend on the processing

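Over all probe sets 1824 were higher and 1858 lower. The higher count was 886 with eBayes without trend, 1007 with arrays centred on their medians, 1018 with each gene as its brightest probe set and 608 with the mean of its probe sets. It was 560 without the 3 arrays that hold both Xist and Y-linked signal, 28 with Y-linked signal as a covariate, and 1066 to 1291 without any 1 array. The lower count was 903 with eBayes without trend, 824 with averaged probe sets, 967 without the 3 arrays, 110 with the covariate and 1147 to 1592 without any 1 array. Of the calls, 49.5% were higher, against 28.5% with median centring, 36.7% without the 3 arrays and 20.3% with the covariate. The median difference of the member probe sets, 0.28, was 0.50 without the 3 arrays, -0.08 with the covariate and 0.19 to 0.42 without any 1 array, the highest without Rhau KO replicate 1. On the macrophage and myeloid list, 1 probe set was higher and 1 lower. The higher count was 0 with eBayes without trend, with the covariate and without the 3 arrays, 2 with the replicate block and 0 to 2 without any 1 array. The lower count was 2 with median centring, quantile normalization or the replicate block, 0 without the 3 arrays and 0 to 2 without any 1 array. The replicate block gave 1684 higher and 1760 lower probe sets over all, although the numbers pair nothing. No cause of these changes was tested. The number of arrays limits the precision, and signals below 5.90 are not told apart from background here. The differences of Lyz2 and Mrc1 kept their sign in all 19 alternatives. Both genes were chosen with these differences known, so nothing is read from that.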
